A study of Mus musculus with 12 samples.

Results

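Expression of the subunits of the respiratory chain and of ATP synthase was examined in C2C12 cells, a mouse myoblast line that fuses into myotubes when it differentiates. The members were the protein-coding genes whose symbols begin with Nduf (followed by a, b, c, s or v and a digit), Cox (followed by a digit from 4 to 8 and a, b or c), Uqcr or Atp5, together with the protein genes of the mitochondrial genome. They numbered 91 of the 46983 genes in the table, 78 in the nucleus and 13 in the mitochondrial DNA, and 12 pseudogenes and other non-coding genes with such symbols were left out. The nuclear members comprised 37 of complex I, 8 of complex III, 16 of complex IV and 17 of complex V, and the mitochondrial ones 7, 1, 3 and 2. They were assigned by symbol, so Ndufa4, now regarded as a subunit of complex IV, was counted under complex I, while Cox4i1, Cyc1, Cycs and complex II fell outside the rule. The 78 nuclear genes lay on 19 chromosomes, 8 of them on chromosome 7. Levels were given as FPKM, fragments scaled to the length of the transcript and to the mapped fragments of the library, which allow a comparison between genes because they are per length. The exons of 38 members share bases with another gene, and the kit does not mark strand, so fragments there cannot be told apart.

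Complexes I, III and IV pass electrons from NADH to oxygen and pump protons across the inner mitochondrial membrane, and complex V, the ATP synthase, uses the proton gradient to make ATP. Most subunits are made from nuclear genes and imported, whereas a small set of hydrophobic core subunits is made inside the organelle from mitochondrial DNA, which is transcribed from both strands as long precursors by a dedicated polymerase. Each complex except the succinate dehydrogenase therefore needs transcripts of both genomes. Skeletal muscle also uses its own isoforms of some complex IV subunits, Cox6a2, Cox7a1 and Cox8b, in place of the widely expressed Cox6a1, Cox7a2 and Cox8a.

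There were 4 groups of 3 libraries. WT_0d and WT_5d were the wild-type group, named PB-IP after the PiggyBac vector, on day 0 and after 5 days of differentiation. PPARγ/+_0d and PPARγ/+_5d were cells on the same days that carried the coding sequence of PPARγ, the nuclear receptor that drives fat cell formation, in that vector, introduced with a transposase and selected with puromycin. The methods describe stable selected cells with no count of clones, whereas the series text calls the line inducible. The paper calls the triplicates biological. Whether they came from separate clones or transfections is not stated, so p-values measure the spread between these libraries. In bulk RNA, fewer cells of a type and less RNA per cell cannot be told apart.

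Pparg and the muscle fibre, proliferation and adipocyte genes marked the groups as labelled, whereas the myoblast genes as a set were not higher on 0d. Pparg lay between 28.0 and 92.7 FPKM in the 6 PPARγ/+ libraries and between 3.12 and 7.56 FPKM in the 6 WT libraries. Of 12 muscle fibre genes tested, 11 rose with differentiation in WT cells and 12 in PPARγ/+ cells, and 8 of 8 proliferation genes fell in both. The summed FPKM of 13 muscle fibre genes was 122 to 331 in WT_0d, 55.2 to 95.4 in PPARγ/+_0d and 1520 to 1801 in PPARγ/+_5d. In WT_5d it was 6892, 5143 and 1473, so replicate 3 of this group stood apart. The summed FPKM of 5 myoblast genes was 42.7 to 86.0 in WT_0d and 48.7 to 107 in WT_5d. In PPARγ/+ cells it was 17.8 to 27.3 on 0d and 56.9 to 61.4 on 5d. Of these 5 genes, 2 fell and 0 rose with differentiation in WT cells, and 3 rose and 0 fell in PPARγ/+ cells. The sum of 10 adipocyte genes was 3.49 to 7.27 in the WT libraries, 10.4 to 16.6 in PPARγ/+_0d, and 39.4, 48.9 and 133 in PPARγ/+_5d. Lep, the leptin gene, was listed at 0 in all 12 libraries. Fragments on genes numbered 15557884 to 22013309 per library.

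The 13 mitochondrial genes fell into 2 ranges of level. mt-Nd1, mt-Nd2, mt-Nd4, mt-Nd5, mt-Nd6, mt-Cytb and mt-Co1 lay between 968 and 9547 FPKM in every library. mt-Co2, mt-Co3, mt-Atp6, mt-Atp8, mt-Nd3 and mt-Nd4l lay between 0.201 and 20.7 FPKM. For 5 of these 6 low genes the annotation holds a near-identical copy, an unprocessed pseudogene, within a stretch of chromosome 1 (GRCm38, minus strand, chr1:24611535-24616197). Gm28661 matched mt-Co2, Gm10925 mt-Atp6, Gm28437 mt-Co3 and Gm10222 mt-Nd4l at 100% of the aligned bases, and Gm28438 matched mt-Nd3 at 99.7% with 1 mismatch in 345 bases. The first 32 bases of mt-Nd3 and of its copy are shown because the only difference lies in them, marked by the capital, T3C counted from the 5′ end of the gene.

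mt-Nd3: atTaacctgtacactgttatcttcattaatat
Gm28438: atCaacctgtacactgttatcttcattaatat

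The copies of all 5 were listed above the mitochondrial gene they match. Over the 12 libraries the mean FPKM of the copy was 2.06 times that of mt-Nd4l, 2.90 times that of mt-Co2, 3.04 times that of mt-Co3, 4.15 times that of mt-Atp6 and 7.27 times that of mt-Nd3. The levels of these 5 genes are therefore uncertain, since fragments that match both places equally well cannot be assigned by sequence, and how they were counted is not given in the sources used here. mt-Atp8, which lies between mt-Co2 and mt-Atp6, was placed with the low genes after its values were seen. No such copy of it was found among the annotated transcripts, and the genome outside them was not searched. With near-identical set at a match of at least 98%, mt-Nd4 and mt-Co1 have such copies over only a stretch of their length. These cover 876 of 1378 bases and 483 of 1545 bases, and both genes stayed in the high range. Fragments of mt-Nd4 and mt-Co1 that lie within these stretches are open to the same uncertainty. Less alike copies over the whole or nearly the whole length were also found for high genes. Gm13340 matched mt-Co1 at 97.6%, Gm11408 matched mt-Nd6 at 93.6% and Gm11410 matched mt-Cytb at 92.9%. The effect of the copies on the counts was not tested.

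**Figure D1:**
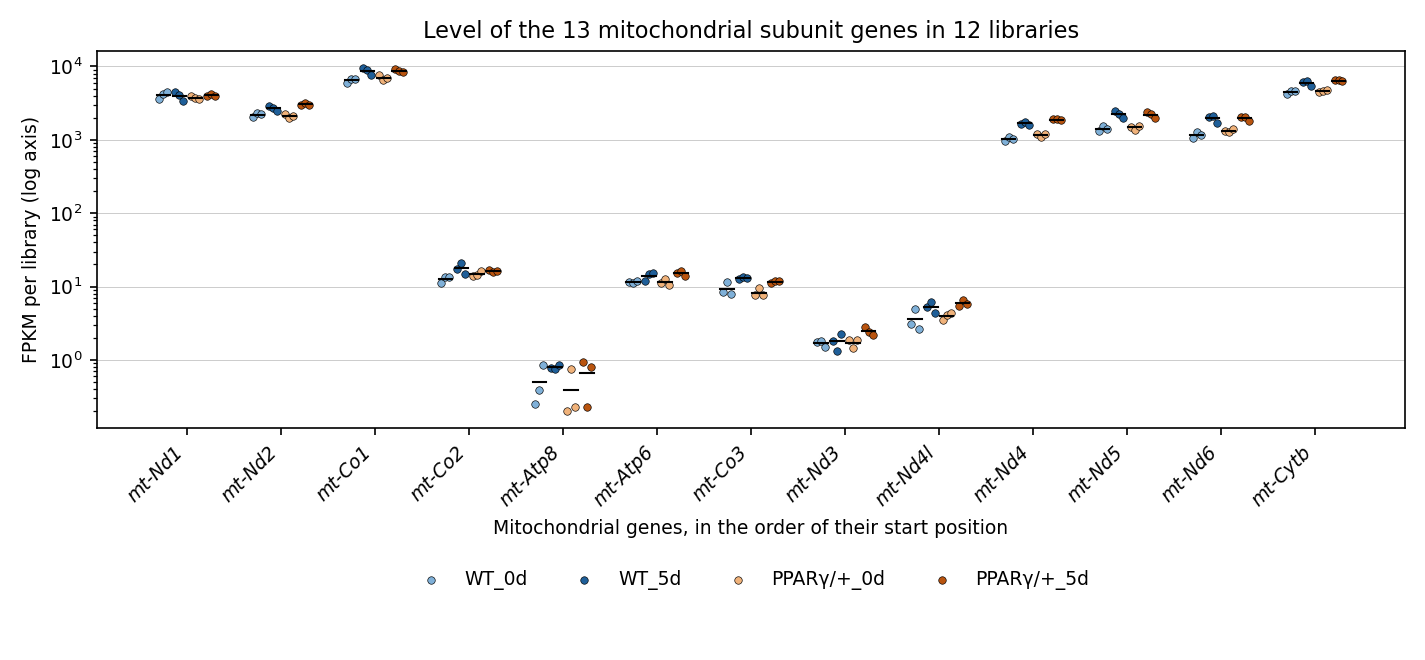
FPKM of the 13 mitochondrial genes in each of the 12 libraries on a log axis, coloured by group, with black bars at the group means (n = 3). The 7 genes of the high range lie between 968 and 9547 FPKM. The other 6, mt-Atp8 and the genes with an annotated near-identical copy over their length, lie between 0.201 and 20.7 FPKM.

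Over the 5 days the summed transcripts of the mitochondrial genome were higher and those of the nuclear members lower. Summed over the 13 mitochondrial genes, the level was 19149, 21813 and 21681 FPKM in WT_0d and 29283, 28223 and 24343 FPKM in WT_5d, 30.7% higher in the mean. In PPARγ/+ cells it was 22299, 20583 and 21589 FPKM on 0d and 28874, 28807 and 27265 FPKM on 5d, 31.8% higher. Every 5d library exceeded every 0d library. Summed over the 78 nuclear genes, the level was 4613, 4516 and 4709 FPKM in WT_0d against 3901, 4124 and 3778 FPKM in WT_5d, and 4681, 4618 and 4228 FPKM in PPARγ/+_0d against 3477, 3641 and 3653 FPKM in PPARγ/+_5d. These sums went the other way without overlap, by -14.7% in WT and -20.4% in PPARγ/+ cells. The ratio of the mitochondrial to the nuclear sum was 4.53 ± 0.346 (SD, n = 3) in WT_0d, 6.93 ± 0.537 in WT_5d, 4.78 ± 0.325 in PPARγ/+_0d and 7.89 ± 0.421 in PPARγ/+_5d. The 13 mitochondrial members took 3.09% of the fragments on genes in WT_0d and 4.09% in WT_5d, and 3.19% and 4.25% in PPARγ/+ cells. The 6 low mitochondrial genes, most of them of uncertain level, added only 36.1 to 57.0 FPKM per library to the mitochondrial sum. The mitochondrial sum and its ratio to the nuclear sum thus describe in effect the 7 high genes. No test was run on the sums. After median-ratio scaling of the libraries the day differences of the mitochondrial sum were 43.3% and 44.3%, and those of the nuclear sum -6.48% and -12.7%, with the WT libraries then overlapping.

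**Figure D2:**
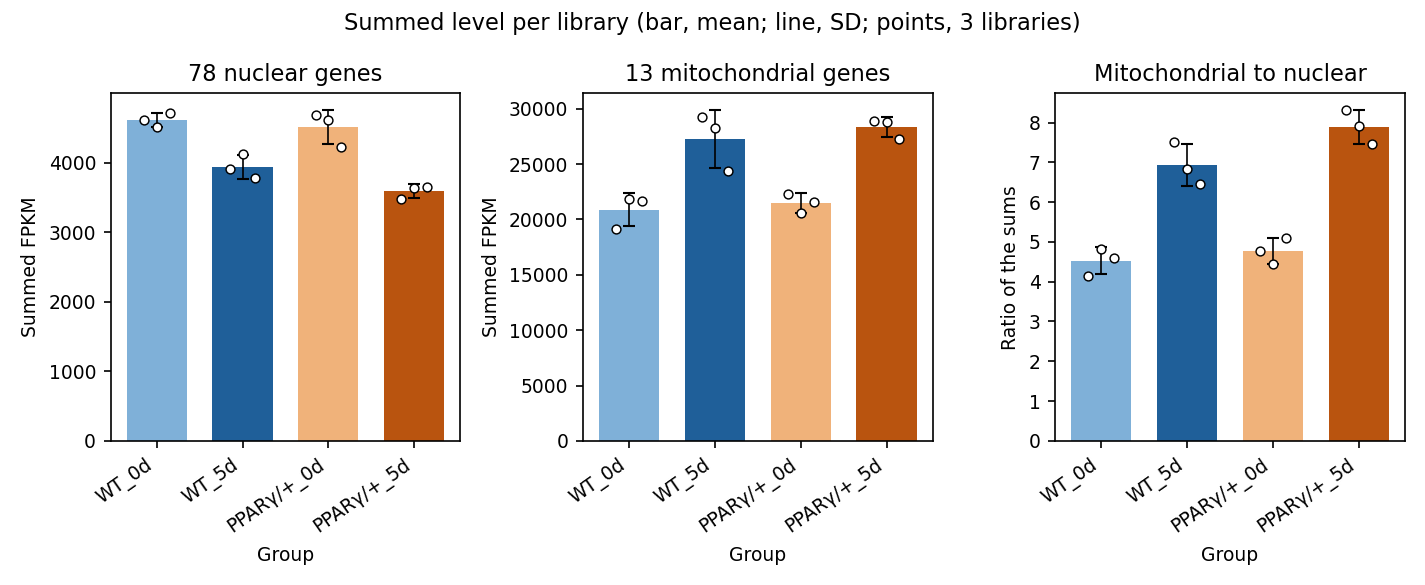
Summed FPKM of the nuclear and of the mitochondrial members per library (points), with bars from 0 at the group mean and lines at ± 1 SD (n = 3). The mitochondrial sum is higher on 5d in every library of both cell types and the nuclear sum lower.

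The test was limma on log2(FPKM + 0.1), and a gene was called at an adjusted p of at most 0.05 over the 18023 genes tested. Of the members, 89 were tested. Cox6b2 and Cox8c, at 0 to 0.0413 FPKM and 0 to 0.0977 FPKM, were under the filter on low values. In WT cells 5 of the 13 mitochondrial members were called higher on 5d and 0 lower, against 14.1% of all genes higher and 23.0% lower. Of the 76 nuclear members tested, 4 were higher and 26 lower. The median log2 difference (5d minus 0d) was 0.48 for the mitochondrial members, -0.19 for the nuclear members and -0.08 for all genes. In PPARγ/+ cells 8 mitochondrial members were higher and 0 lower, and 6 nuclear members were higher and 49 lower, against 18.8% of all genes higher and 28.8% lower. The medians were 0.49, -0.29 and -0.10. Median-ratio scaling moved the median of all genes to 0.03 in WT and 0.02 in PPARγ/+ cells. Relative to all genes, the nuclear median was -0.11 in WT and -0.20 in PPARγ/+ cells as deposited and -0.09 and -0.21 after that scaling. With the scaling 7 nuclear members were called higher and 14 lower in WT, and 8 and 32 in PPARγ/+ cells. The shares of all genes above belong to the unscaled values, and those under the scaling are not given here.

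All 26 nuclear members that fell in WT cells also fell in PPARγ/+ cells, where they made up 53.1% of the 49. The 4 that rose in WT cells, Cox6a2, Cox8b, Ndufa13 and Ndufv3, were among the 6 that rose in PPARγ/+ cells, with Cox7a1 and Atp5s. Of the mitochondrial members mt-Co3, mt-Nd4, mt-Nd5 and mt-Nd6 rose in both, mt-Co2 was called in WT cells alone, and mt-Nd2, mt-Nd3, mt-Nd4l and mt-Atp6 in PPARγ/+ cells alone. No member was called in opposite directions. Under all 16 other settings of filter, scaling, model and left-out library, 13 of the 26 lower calls in WT cells and 32 of the 49 in PPARγ/+ cells held, and so did 3 of the 4 and 4 of the 6 higher nuclear calls. Of the mitochondrial calls 0 of 5 held in WT cells and 2 of 8, mt-Atp6 and mt-Co3, in PPARγ/+ cells. In WT cells the count was 0 without WT_0d replicate 1 or WT_5d replicate 2. It was 1 without WT_0d replicate 3, where all 5 calls were lost and mt-Atp8 was gained, and 3 without WT_5d replicate 1, where mt-Nd4 and mt-Nd6 stayed and mt-Atp6 was gained. In PPARγ/+ cells the count was 5 without PPARγ/+_0d replicate 2, PPARγ/+_5d replicate 1 or PPARγ/+_5d replicate 2. The nuclear count in WT cells, 30, was 18 without WT_0d replicate 3.

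**Figure D3:**
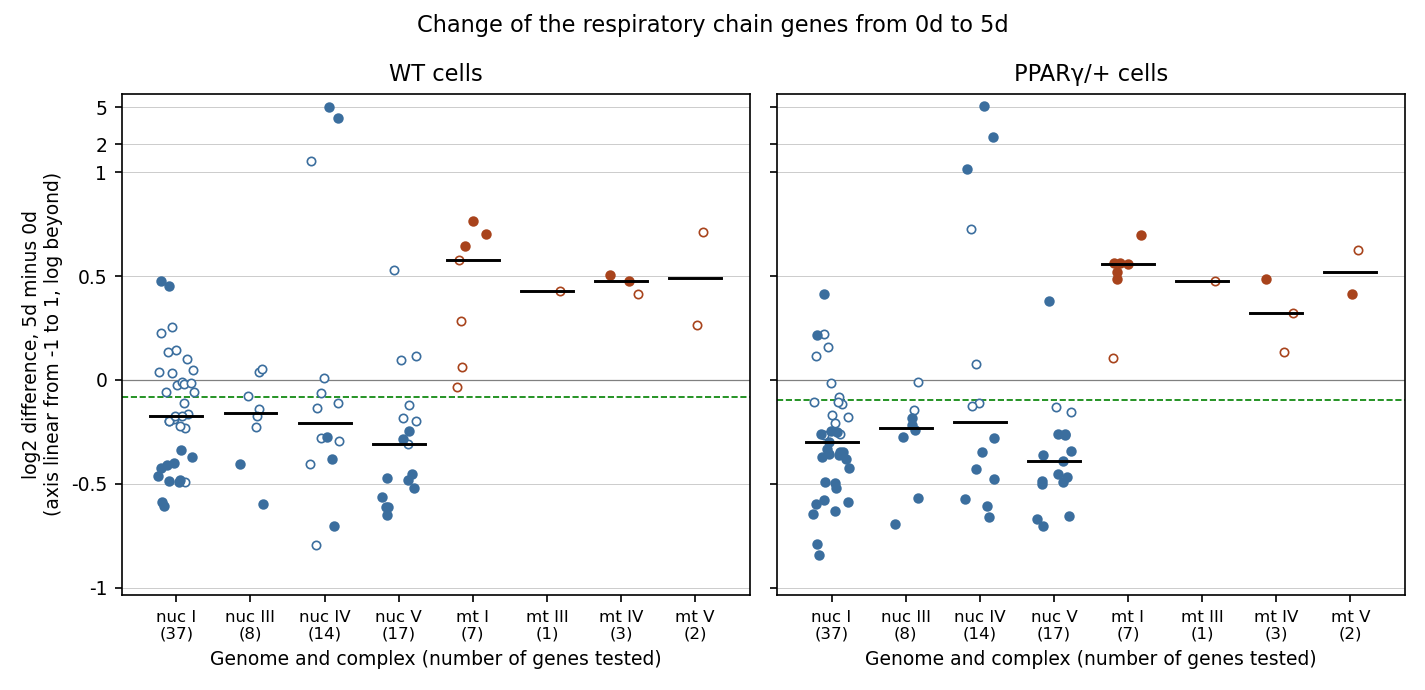
Log2 difference (5d minus 0d) of each tested member by complex and genome, in WT and in PPARγ/+ cells, on an axis that is linear between -1 and 1 and logarithmic beyond. Filled points have an adjusted p of at most 0.05, black bars are class medians and the green dashed line is the median of all genes tested. The medians of the mitochondrial classes lie above 0 and those of the nuclear classes below 0 in both cell types.

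Of the mitochondrial complex I genes, which encode the membrane arm that pumps protons, mt-Nd4, mt-Nd5 and mt-Nd6 showed the clearest rise. mt-Nd4 was at 968, 1099.6 and 1033 FPKM in WT_0d and 1659, 1766 and 1612 FPKM in WT_5d, a log2 difference of 0.70 ± 0.15 (SE, adjusted p = 0.014). In PPARγ/+ cells it was at 1194, 1107 and 1184 FPKM on 0d and 1894, 1913 and 1839 FPKM on 5d, also 0.70, ± 0.10 (adjusted p = 0.0016). The groups did not overlap in either cell type, as was the case for mitochondrial members higher on 5d in 8 of 13 in WT cells (20.2% of all genes) and 10 of 13 in PPARγ/+ cells (23.8% of all genes). Of the 76 nuclear members tested, 39 lay lower on 5d without overlap in WT cells and 55 in PPARγ/+ cells, beside 30.9% and 34.4% of all genes. mt-Nd6, the only member on the minus strand of the mitochondrial DNA, was at 1043, 1271 and 1153 FPKM in WT_0d and 2070.4, 2129 and 1701 FPKM in WT_5d (0.76 ± 0.19, adjusted p = 0.020). Its values in PPARγ/+ cells were 1313, 1284 and 1384 FPKM and then 2053, 2024 and 1803 FPKM (0.56 ± 0.11, adjusted p = 0.0063). Genes of both strands were thus among those called. The TruSeq kit used does not mark strand, so fragments of mt-Nd6 cannot be told from those of the opposite strand over the same bases.

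mt-Nd5 followed with 1314, 1544 and 1403 FPKM in WT_0d and 2479, 2213 and 1995 FPKM in WT_5d (0.65 ± 0.19, adjusted p = 0.037), and with a difference of 0.56 ± 0.13 in PPARγ/+ cells (adjusted p = 0.011). mt-Nd2 rose in PPARγ/+ cells, from 2231, 1997 and 2143 FPKM to 2947, 3185 and 3001 FPKM (0.52 ± 0.13, adjusted p = 0.015). In WT cells its difference was 0.28 ± 0.20 (adjusted p = 0.32), with groups that did not overlap. mt-Nd1 stood apart from these genes. It was at 3618, 4175 and 4439.7 FPKM in WT_0d and 4439, 4131 and 3410.0 FPKM in WT_5d, and the groups overlapped (-0.03 ± 0.27, adjusted p = 0.94). In PPARγ/+ cells its difference was 0.10 ± 0.15 (adjusted p = 0.60), also with overlap. Among the low genes, mt-Nd3 (1.34 to 2.77 FPKM over all libraries) and mt-Nd4l (2.62 to 6.58 FPKM) rose in PPARγ/+ cells, by 0.49 ± 0.15 and 0.57 ± 0.12 (adjusted p = 0.034 and 0.0072).

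Complexes III, IV and V have few mitochondrial subunits. mt-Cytb, the cytochrome b of complex III, was at 4169, 4559 and 4582 FPKM in WT_0d and 6151, 6352 and 5412 FPKM in WT_5d, and at 4450.1, 4571 and 4787 FPKM and then 6444, 6456 and 6289 FPKM in PPARγ/+ cells. mt-Co1, which holds the catalytic centre of complex IV, had the highest level of all members, 5966, 6781 and 6818 FPKM in WT_0d and 9547, 8878 and 7721 FPKM in WT_5d, and 7553, 6532 and 6877 FPKM and then 9155, 8706 and 8361 FPKM in PPARγ/+ cells. Neither gene's groups overlapped, yet neither passed the test, whereas limma-voom on the recovered fragments, chosen after seeing the data, called both in both cell types (adjusted p = 0.014 and 5.0e-05 for mt-Cytb, 0.026 and 0.0025 for mt-Co1). The differences of mt-Cytb were 0.43 ± 0.28 (adjusted p = 0.28) and 0.48 ± 0.17 (adjusted p = 0.057), and those of mt-Co1 0.42 ± 0.33 (adjusted p = 0.38) and 0.32 ± 0.20 (adjusted p = 0.24).

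mt-Co3, a core subunit of complex IV, rose from 8.35, 11.6 and 7.93 FPKM to 12.7, 13.4 and 12.9 FPKM in WT cells (0.50 ± 0.15, adjusted p = 0.039) and from 7.68, 9.49 and 7.65 FPKM to 11.1, 11.8 and 11.9 FPKM in PPARγ/+ cells (0.49 ± 0.10, adjusted p = 0.0058). Its chromosome 1 copy Gm28437, at 24.96 to 40.3 FPKM, rose too, by 0.55 ± 0.07 and 0.45 ± 0.08 (adjusted p = 0.0016 and 0.0037). mt-Co2 rose in WT cells by 0.48 ± 0.15 (adjusted p = 0.045). In PPARγ/+ cells its difference was 0.13 ± 0.07 (adjusted p = 0.18), and that between the changes of the cell types was -0.34 ± 0.17 (adjusted p = 0.47). mt-Atp6, the membrane subunit of complex V through which protons pass, rose in PPARγ/+ cells from 11.1, 12.8 and 10.4 FPKM to 15.3, 16.3 and 14.1 FPKM (0.41 ± 0.09, adjusted p = 0.011). In WT cells its groups overlapped (0.26 ± 0.11, adjusted p = 0.11). mt-Atp8, at 0.201 to 0.946 FPKM, overlapped between days in both.

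Among the nuclear complex I genes 2 rose and 11 fell in WT cells, and 2 rose and 22 fell in PPARγ/+ cells, of 37. The shares lower were 29.7% beside 23.0% of all genes in WT cells and 59.5% beside 28.8% in PPARγ/+ cells. Their medians were -0.17 and -0.30, and their summed FPKM differed by -9.01% and -18.4%, or by -0.263% and -10.6% after median-ratio scaling. Ndufa4 fell furthest among those above 1 FPKM, from 104, 86.5 and 101 FPKM to 60.5, 67.6 and 62.9 FPKM in WT cells (-0.61 ± 0.10, adjusted p = 0.0045) and from 106, 105 and 88.9 FPKM to 53.8, 57.5 and 54.8 FPKM in PPARγ/+ cells (-0.84 ± 0.08, adjusted p = 0.00026). The days were wide apart in both. Of the core subunits, which carry the flavin and iron-sulphur clusters, Ndufv2 fell by 0.34 ± 0.08 and 0.52 ± 0.05 (adjusted p = 0.014 and 0.00030), and Ndufs8 fell by 0.37 ± 0.08 and 0.59 ± 0.08 (adjusted p = 0.014 and 0.0015). Ndufv1 and Ndufs1, called in PPARγ/+ cells at -0.26 ± 0.08 and -0.25 ± 0.07 (adjusted p = 0.035 and 0.023), lost the call under all 3 other scalings, Ndufv1 also without any single library but PPARγ/+_0d replicate 3, and Ndufs1 without PPARγ/+_5d replicate 1 or 3. The WT call of Ndufv2 was also lost under all 3, and the WT calls of Ndufv2 and Ndufs8 were lost without WT_0d replicate 3. Ndufs3 and Ndufs7 were called in neither cell type, at -0.17 to 0.04. Over the core subunits of complexes I, III and V together, 6 of 13 fell in WT and 10 of 13 in PPARγ/+ cells, with 0 higher.

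Ndufa13 and Ndufv3, small supernumerary subunits of complex I, were the exceptions. Ndufa13, also known as GRIM-19, was at 36.9, 37.7 and 40.9 FPKM in WT_0d and 53.9, 52.5 and 54 FPKM in WT_5d (0.48 ± 0.07, adjusted p = 0.0031). In PPARγ/+ cells it went from 41.8, 40.8 and 37.7 FPKM to 44.9, 47.7 and 47.3 FPKM (0.22 ± 0.06, adjusted p = 0.019), a call that was lost without PPARγ/+_5d replicate 2 or replicate 3. Ndufv3 was at 15.4, 16.7 and 17.1 FPKM in WT_0d and 20.3, 24 and 23.2 FPKM in WT_5d (0.45 ± 0.09, adjusted p = 0.010), and at 16.4, 16.3 and 17.3 FPKM and then 21.7, 23.1 and 21.9 FPKM in PPARγ/+ cells (0.42 ± 0.05, adjusted p = 0.00082). Neither gene overlapped between days.

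Of the 8 nuclear complex III genes 2 fell in WT and 6 in PPARγ/+ cells, and 0 rose. The WT share is near the 23.0% of all genes called lower, and that of all genes in PPARγ/+ cells was 28.8%. The medians were -0.16 and -0.23. The summed FPKM differed by -7.96% in WT cells, a sign that median-ratio scaling turned (1.03%), and by -15.3% in PPARγ/+ cells (-7.10% after scaling). Uqcrc1, a core protein of the complex, fell from 34.5, 31.9 and 35.6 FPKM to 22.4, 23.8 and 21.1 FPKM in WT cells (-0.60 ± 0.08, adjusted p = 0.0023) and from 31.8, 33.6 and 29.97 FPKM to 19.8, 21.7 and 22.7 FPKM in PPARγ/+ cells (-0.57 ± 0.07, adjusted p = 0.00085). Uqcrb, which binds ubiquinone, fell by 0.41 ± 0.08 and 0.69 ± 0.05 (adjusted p = 0.011 and 0.00011), the WT call being lost under median-ratio scaling. Both fell without overlap between the days. Uqcrc2 and Uqcrfs1, the Rieske iron-sulphur protein, were called in PPARγ/+ cells at -0.22 ± 0.07 and -0.18 ± 0.05 (adjusted p = 0.037 and 0.021), and under none of the other scalings. Uqcrc2 also lost the call without any single library but PPARγ/+_0d replicate 3, and Uqcrfs1 without PPARγ/+_5d replicate 1 or 2. Uqcrh, the hinge protein, was the most even member, at 100.02 to 109 FPKM in all 12 libraries.

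Of the 14 nuclear complex IV genes tested 2 rose and 3 fell in WT cells, and 3 rose and 7 fell in PPARγ/+ cells. In WT cells both shares, 14.3% and 21.4%, were at the level of all genes, 14.1% higher and 23.0% lower, and in PPARγ/+ cells all genes had 18.8% and 28.8%. The medians were -0.21 and -0.20, and -0.28 and -0.27 with Ndufa4 and its paralogue Ndufa4l2 counted here. The summed FPKM differed by -13.9% and -20.3% (-5.61% and -12.6% after scaling). Cox5a fell furthest, from 41.5, 38.3 and 39.9 FPKM to 23.9, 27 and 22.7 FPKM in WT cells (-0.70 ± 0.09, adjusted p = 0.0017) and from 36.8, 37.5 and 35 FPKM to 22.9, 22.6 and 23.5 FPKM in PPARγ/+ cells (-0.66 ± 0.05, adjusted p = 0.00011). It fell under every setting tried in both cell types.

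The heart and muscle isoforms of complex IV, all 3 on chromosome 7, had the largest differences among the members called. Cox8b was at 0.142, 0.438 and 0 FPKM in WT_0d, which is 1, 4 and 0 fragments, and at 11.6, 13.5 and 2.91 FPKM in WT_5d. The log2 difference was 5.05 ± 0.79 (adjusted p = 0.0041). In PPARγ/+_0d it was at 0 in all 3 libraries, and in PPARγ/+_5d at 3.33, 4.24 and 2.82 FPKM, or 25, 33 and 19 fragments. Against a floor of 3 fragments per library this is at least 10.1-fold higher (adjusted p = 1.6e-05), a bound that covers counting error only. Cox6a2 was at 1.90, 0.117 and 0.254 FPKM in WT_0d and 12.5, 13.8 and 2.58 FPKM in WT_5d (3.86 ± 0.99, adjusted p = 0.024), a call lost without WT_0d replicate 2 or 3, without WT_5d replicate 1 or 2, or with no filter on low values. In PPARγ/+ cells it was at 0.603, 1.07 and 0.404 FPKM and then 3.62, 4.31 and 3.48 FPKM (2.38 ± 0.30, adjusted p = 0.00087).

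Cox7a1 was at 1.70, 1.09 and 0.712 FPKM in WT_0d and 4.53, 4.13 and 1.33 FPKM in WT_5d. These groups overlapped, and the difference of 1.34 ± 0.52 did not pass the test (adjusted p = 0.089), though it did without WT_5d replicate 3. In PPARγ/+ cells Cox7a1 rose from 1.24, 0.632 and 0.881 FPKM to 1.59, 2.30 and 2.22 FPKM (1.10 ± 0.25, adjusted p = 0.012), a call lost without PPARγ/+_5d replicate 2. By the second call rule, an unadjusted p of at most 0.05 with at least a 2-fold change, these 3 isoforms were the only members called in either cell type, all higher, against 8.94% and 9.11% of all genes higher and 7.53% and 6.06% lower.

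In WT_5d all 3 isoforms were lowest in replicate 3, the library with the lowest sum of muscle fibre genes, and the part of that sum in the result was not tested. The widely expressed partners stayed far above them. Cox8b made up 7.30%, 6.49% and 1.53% of the Cox8b and Cox8a FPKM in WT_5d and 1.87%, 2.28% and 1.54% in PPARγ/+_5d. Cox6a2 made up 8.93%, 7.17% and 1.56% of its pair in WT_5d and 2.62%, 2.66% and 2.13% in PPARγ/+_5d. Cox6a1 fell in PPARγ/+ cells from 237, 228 and 206 FPKM to 134, 158 and 159.9 FPKM (-0.57 ± 0.09, adjusted p = 0.0025), and in WT cells its difference was -0.41 ± 0.14 (adjusted p = 0.059). Cox7a2 fell by 0.38 ± 0.08 in WT and 0.61 ± 0.05 in PPARγ/+ cells (adjusted p = 0.011 and 0.00015), and its WT call was lost under median-ratio scaling. Cox8a, at 147 to 194 FPKM over all libraries, was called in neither (-0.06 ± 0.13 and 0.08 ± 0.09). In each pair on 5d the widely expressed gene thus remained the main transcript. Ndufa4l2 and the testis isoform Cox7b2 stayed under 0.3 FPKM.

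**Figure D4:**
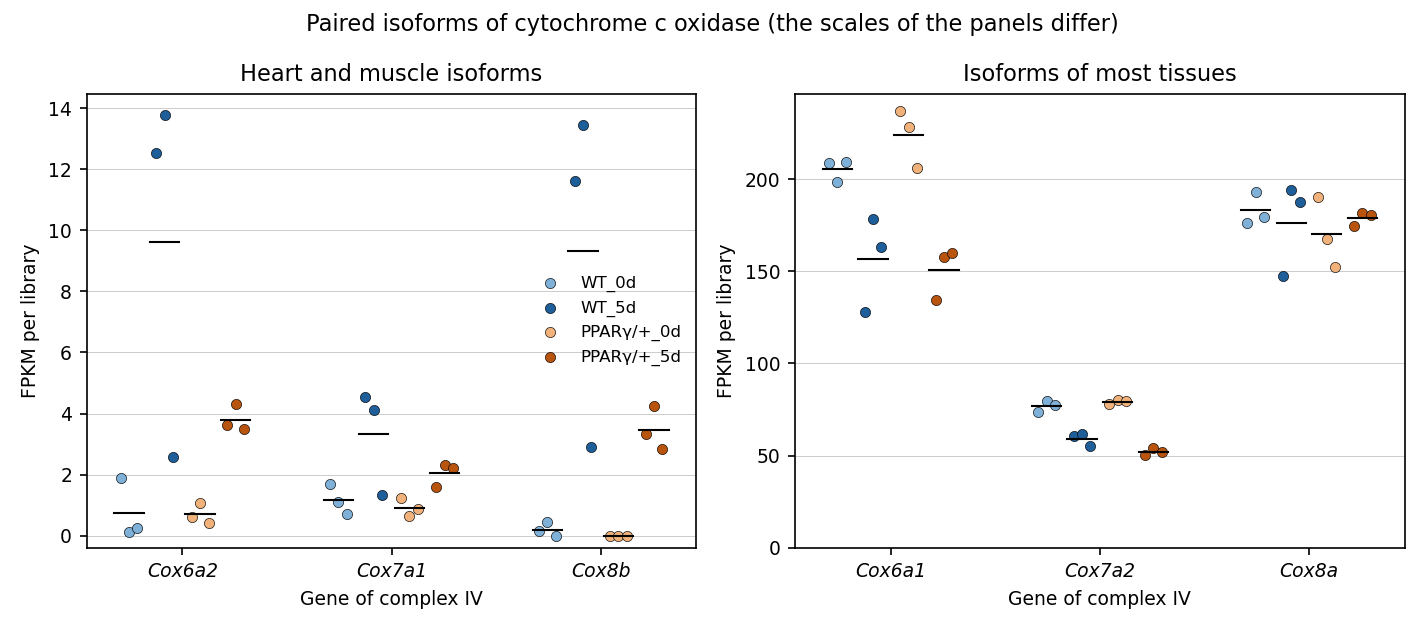
FPKM of the muscle isoforms Cox6a2, Cox7a1 and Cox8b and of their widely expressed partners Cox6a1, Cox7a2 and Cox8a in each library by group, with black bars at the group means (n = 3). In WT_5d the third library lies below the other 2 for each muscle isoform, at 2.58, 1.33 and 2.91 FPKM.

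The promoters of Cox8b and Cox8a are shown because this pair held the largest rise among the members beside a partner that was called in neither cell type. Both windows run from 250 bases before the start of the gene to 50 after it (RefSeq, GRCm38.p6, both on the minus strand, printed 5′ to 3′ along the gene). Capitals mark the E-box CAGCTG, which MyoD and myogenin bind, and the letters TATAAA, here just after the annotated start, in Cox8b (chr7:140900397-140900696), and the Ets motif CCGGAAG, bound by GABP and here on the opposite strand, in Cox8a (chr19:7217567-7217866).

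Cox8b: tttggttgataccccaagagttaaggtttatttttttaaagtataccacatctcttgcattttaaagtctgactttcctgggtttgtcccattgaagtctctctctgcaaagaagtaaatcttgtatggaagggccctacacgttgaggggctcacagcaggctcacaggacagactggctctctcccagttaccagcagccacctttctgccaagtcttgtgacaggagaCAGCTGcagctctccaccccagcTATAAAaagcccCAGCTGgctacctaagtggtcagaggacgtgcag
Cox8a: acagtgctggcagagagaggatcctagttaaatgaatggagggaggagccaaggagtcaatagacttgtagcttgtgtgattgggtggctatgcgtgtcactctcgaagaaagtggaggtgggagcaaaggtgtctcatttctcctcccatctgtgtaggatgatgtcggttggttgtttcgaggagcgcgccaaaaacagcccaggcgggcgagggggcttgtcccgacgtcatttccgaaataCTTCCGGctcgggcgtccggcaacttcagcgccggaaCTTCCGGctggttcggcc

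A window was found for 65 of the 78 nuclear members, 70 windows in all, and motifs were sought on both strands. The letters TGCGCA, the core of the NRF1 motif, stood in 24.3% of the member windows and 7.76% of the 32851 windows of all genes. The Ets motif CCGGAAG stood in 14 of the 70 windows against 8.86%, AAGATGG, a YY1 motif, in 15.7% against 6.34%, and AAGGTCA, the site of ERRα and a half-site of nuclear receptors, in 7 of the 70 against 4.72%. CAGCTG stood in 8.57% against 16.3%, the wider E-box CANNTG, which includes CAGCTG, in 49 of the 70 against 72.3%, and TATAAA in 11.4% against 13.6%. A match describes the sequence and not a bound site.

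Of the 17 nuclear complex V genes 10 fell and 0 rose in WT cells, and 14 fell and 1 rose in PPARγ/+ cells, shares lower of 58.8% and 82.4% beside 23.0% and 28.8% of all genes. This complex had the lowest medians, -0.31 and -0.39, and its summed FPKM differed by -23.6% and -24.5% (-16.1% and -17.3% after scaling), a sum that did not overlap between days in either cell type as deposited. Atp5b, the catalytic beta subunit, was at 293, 297 and 331 FPKM in WT_0d and 218, 216 and 159 FPKM in WT_5d (-0.65 ± 0.15, adjusted p = 0.016). In PPARγ/+ cells it was at 270.2, 243 and 228 FPKM and then 167, 177 and 179 FPKM (-0.50 ± 0.08, adjusted p = 0.0022). Atp5a1, the alpha subunit, fell by 0.47 ± 0.10 and 0.36 ± 0.08 (adjusted p = 0.014 and 0.010), and both calls were lost under median-ratio scaling. The WT calls of Atp5b and Atp5g3 were lost under that scaling too, and those of all 3 genes without WT_0d replicate 3. Atp5c1, the gamma subunit of the rotor, fell by 0.48 ± 0.08 and 0.49 ± 0.05 (adjusted p = 0.0046 and 0.00047) under every setting.

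The membrane ring of complex V is built from one protein encoded by 3 genes, Atp5g1, Atp5g2 and Atp5g3. All 3 fell in both cell types, Atp5g1 from 20.9, 19.9 and 21.1 FPKM to 13, 15 and 12.5 FPKM in WT cells (-0.61 ± 0.09, adjusted p = 0.0031) and from 21.2, 19.3 and 17.7 FPKM to 11.7, 12 and 11.8 FPKM in PPARγ/+ cells (-0.70 ± 0.07, adjusted p = 0.00039). Their summed FPKM was 195 to 206 in WT_0d, 132 to 146 in WT_5d, 169 to 192 in PPARγ/+_0d and 122 to 132 in PPARγ/+_5d. The days did not overlap. Atp5s, a coupling factor of low level, was the exception, at 3.34, 3.25 and 3.36 FPKM in PPARγ/+_0d and 4.48, 4.35 and 4.2 FPKM in PPARγ/+_5d (0.38 ± 0.07, adjusted p = 0.0047). In WT cells its difference was 0.53 ± 0.18 (adjusted p = 0.059).

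Between the cell types on 0d, 1 nuclear member was higher in PPARγ/+ cells and 1 lower, against 1.28% of all genes higher and 2.46% lower, and 0 of the mitochondrial members were called. Ndufb7, a supernumerary subunit of complex I, was at 34.9, 35.2 and 31.7 FPKM in PPARγ/+_0d and 24.9, 24.5 and 25.8 FPKM in WT_0d (PPARγ/+ minus WT 0.43 ± 0.06, adjusted p = 0.024). Atp5g3 was at 70.6, 65.2 and 64.5 FPKM against 80.7, 81.0 and 83.8 FPKM (-0.29 ± 0.06, adjusted p = 0.050). The groups did not overlap for either gene, but both calls were lost when any of the 6 libraries was left out, leaving 0. At an unadjusted p of at most 0.05, 2 nuclear members were higher and 6 lower and 0 mitochondrial members were either, beside 11% of all genes higher and 10.7% lower. The medians were -0.01 for the nuclear and 0.05 for the mitochondrial members, and 0.02 for all genes.

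On 5d no member was called between the cell types by limma, where 0.105% of all genes were higher and 0.0832% lower in PPARγ/+ cells. At an unadjusted p of at most 0.05, 22 nuclear members and 1 mitochondrial member were lower and 1 nuclear member higher, and the shares of all genes at that level were 6.1% lower and 6.56% higher. The nuclear median was -0.14, against 0.02 for all genes and 0.03 for the mitochondrial members. Libraries of the cell types did not overlap for 29 of 76 nuclear members lower in PPARγ/+_5d (8.31% of all genes) and for 1 higher (10.2%). Without WT_5d replicate 3, 19 nuclear members were called lower, Atp5b, Cox7a2, Ndufv1 and Uqcrb among them, and 0 mitochondrial members. The shares of all genes above belong to the fit with every library, and that of the fit without this library is not given here. Ndufs5, a supernumerary complex I subunit, had the lowest complex I difference, at 40.6, 41.3 and 36.1 FPKM in WT_5d against 30.1, 29.8 and 34.8 FPKM in PPARγ/+_5d (-0.32 ± 0.09, adjusted p = 0.25). Cox8b and Cox6a2 had differences of -1.15 ± 0.59 and -1.001 ± 0.64 (adjusted p = 0.46 and 0.55). Without WT_5d replicate 3 they were -1.84 ± 0.19 and -1.77 ± 0.11, and that of Cox7a1 was -1.07 ± 0.18, all 3 called (adjusted p = 0.012, 0.0069 and 0.035). In replicate 3 of WT_5d, at 2.91 and 2.58 FPKM, they were close to or below the PPARγ/+_5d libraries, whereas in the other 2 WT_5d libraries they were above all of them.

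The change over the 5 days was then compared between the cell types as an interaction, the difference in PPARγ/+ minus that in WT cells. No member was called, against 0.583% of all genes positive and 0.178% negative. At an unadjusted p of at most 0.05, 8 nuclear members were negative and 1 positive and 0 mitochondrial members were either, beside 5.18% of all genes negative and 6.82% positive. The nuclear median was -0.13, the mitochondrial median -0.01 and that of all genes -0.01. Ndufs5 had the lowest complex I value, -0.37 ± 0.11 (adjusted p = 0.18), Uqcrb the lowest of complex III, -0.29 ± 0.10 (adjusted p = 0.24), and Cox6a2 the lowest of complex IV, -1.48 ± 1.11 (adjusted p = 0.66). The larger count of lower members in PPARγ/+ cells is therefore not a tested difference between the cell types.

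Other genes of the pathway were read against the same shares of all genes, 14.1% higher and 23.0% lower in WT and 18.8% and 28.8% in PPARγ/+ cells. Of 11 subunits outside the symbol rule 6 fell in WT cells and 9 in PPARγ/+ cells, and 0 rose. Cycs, the cytochrome c that carries electrons from complex III to complex IV, fell by 0.97 ± 0.17 and 0.85 ± 0.10 (adjusted p = 0.0063 and 0.00076), and Cyc1, the cytochrome c1 of complex III, fell by 0.69 ± 0.15 and 0.76 ± 0.07 (adjusted p = 0.013 and 0.00031). Sdhb, the iron-sulphur subunit of complex II, was called lower in both as well, at 32.2, 30.7 and 31.8 FPKM in WT_0d and 21.5, 22.1 and 17.5 FPKM in WT_5d. Cox4i2 stayed under 0.3 FPKM (0.69 ± 0.39 in PPARγ/+ cells, adjusted p = 0.19). Of 38 assembly factors tested 3 rose and 8 fell in WT cells, and 5 rose and 14 fell in PPARγ/+ cells, with medians of -0.05 and -0.15. The WT share lower, 21.1%, was at the level of all genes. Cox10 and Cox18, which serve haem synthesis for and insertion of complex IV subunits, and Ndufaf5, a complex I factor, fell in both, Cox10 by 0.94 ± 0.09 and 1.06 ± 0.10 (adjusted p = 0.00088 and 0.00023).

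Of 20 genes that transcribe, process or translate mitochondrial RNA, 8 fell in WT and 11 in PPARγ/+ cells, and 0 rose in either. Pnpt1, the mitochondrial polynucleotide phosphorylase that degrades RNA, fell by 0.69 ± 0.10 in WT and 0.50 ± 0.12 in PPARγ/+ cells (adjusted p = 0.0028 and 0.014). Fastkd2, an RNA-binding protein of the organelle, fell by 0.65 ± 0.12 in WT cells (adjusted p = 0.0066), and Fastkd5 and Slirp fell by 0.78 ± 0.24 and 0.50 ± 0.09 in PPARγ/+ cells (adjusted p = 0.037 and 0.0037). Of 9 regulators of mitochondrial biogenesis tested 4 fell in each cell type, Nrf1 by 0.73 ± 0.10 and 0.54 ± 0.08 (adjusted p = 0.0026 and 0.0018) and Pprc1, a PGC-1-related coactivator, by 0.69 ± 0.08 and 0.58 ± 0.11 (adjusted p = 0.0016 and 0.0051). Yy1 fell by 0.49 ± 0.08 in WT cells (adjusted p = 0.0052). Ppargc1b, the coactivator PGC-1β, rose in PPARγ/+ cells by 0.93 ± 0.22 (adjusted p = 0.013), from 0.647, 0.375 and 0.528 FPKM to 0.967, 0.944 and 1.28 FPKM, and stayed below the mean of WT_0d (1.396 FPKM).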

How the data were processed

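Total RNA of C2C12 cells gave 12 paired-end libraries with an unstranded kit. The authors' methods give trimming by Trim Galore, alignment by STAR to the GRCm38 genome, gene counts by HTSeq on Ensembl genes and tests by DESeq2, whereas the submitters' processing notes name mm9. The authors deposited FPKM per gene and library, not pooled. Gene lengths implied by the deposited FPKM were those of a GRCm38 annotation (GENCODE M21) for 78.2% of the genes above 0, so GRCm38 coordinates are given. A table of log2 FPKM served only as a check of the FPKM table, which it matched.

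Groups came from the sample labels. limma 3.58.1 (R 4.3.3) with a trend was fitted to log2(FPKM + 0.1) over the 18023 genes with at least 0.1 FPKM in at least 3 libraries, each pairwise comparison on its own 6 libraries and the interaction on all 12, with Benjamini-Hochberg adjustment. Fold changes on this scale understate those of low genes. Fragments were recovered from FPKM, gene length and mapped read pairs. Copies were sought with blastn 2.17.0 among annotated nuclear transcripts only. The fit was checked on simulated data. Named were the mitochondrial members, core subunits, tissue isoforms, the extremes of each complex and the called members of the cell type comparisons. Members and lists were chosen with earlier results of these data known.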

Additional observations from a re-analysis of the deposited data

How the results depend on the processing

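Each result was recomputed with a pseudocount of 1 or 0.01, no filter or a filter at 1 FPKM, median-ratio, quantile or nuclear protein-coding scaling, a replicate block, all 12 libraries in one fit, each library left out, and limma-voom on recovered fragments (chosen after seeing the data). No value that passed the test changed sign. Of the class medians, those close to 0 did: the nuclear one on 0d, 0.032 without PPARγ/+_0d replicate 3, and the mitochondrial ones on 5d and in the interaction, the last -0.01 and up to 0.054 without WT_0d replicate 1. In WT cells the count of nuclear members called was 18 to 32 with a library left out, and the median, -0.19, was -0.061, -0.081 and -0.091 under the 3 scalings. The WT mitochondrial count of 5 was 0 without the filter, 2 with the block and 0 to 4 with a library left out, and the median was 0.61 under median-ratio scaling. In PPARγ/+ cells the nuclear median, -0.29, was -0.18, -0.20 and -0.20 under the scalings and -0.35 to -0.27 with a library left out. The mitochondrial count of 8 was 3 without the filter and 5 to 9 with a library left out, and the median, 0.49, was 0.45 with a pseudocount of 1 and under quantile scaling, 0.62 and 0.60 under median-ratio and protein-coding scaling, 0.53 with limma-voom, and 0.45 to 0.50 with a library left out. On 0d the 2 nuclear calls were 1 without the filter or under median-ratio scaling, and 0 with the block, with all 12 libraries or with any library left out. On 5d the nuclear count was 0 to 19 and the mitochondrial median -0.076 to 0.077 with a library left out, 19 and -0.076 without WT_5d replicate 3. The interaction called 0 or 1 nuclear member with a library left out. Counting Ndufa4 and Ndufa4l2 under complex IV moved its median from -0.21 to -0.28 in WT and from -0.20 to -0.27 in PPARγ/+ cells. Over the nuclear members that share no exon bases with another gene the medians were -0.17 and -0.31. The causes were not tested. Of 4575 further values of 54 named members, 143 lost and 57 gained a call, and 0 of those called changed sign.

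Replicate numbers did not pair the libraries: over 18 pairs of the same number in different groups the correlation of deviations was -0.07 to 0.08. The block gave 24 nuclear calls in WT and 49 in PPARγ/+ cells, against 30 and 55. With 3 libraries a group and 1 or a few fragments for the muscle isoforms on 0d, their fold changes are imprecise, and levels of mitochondrial genes with chromosome 1 copies stay uncertain.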

Other observations

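The chromosome 1 copies of the mitochondrial genes were themselves measured in every library. Of the 7, Gm28439 (copy of a stretch of mt-Nd4), Gm29216 (mt-Co1), Gm28437 (mt-Co3) and Gm28438 (mt-Nd3) were higher on 5d in both cell types by limma. Gm28439 went from 8.42, 9.41 and 8.43 FPKM in WT_0d to 13.4, 14.9 and 13.6 FPKM in WT_5d, a log2 difference of 0.67 ± 0.08 (SE, adjusted p = 0.0019), beside 0.70 for mt-Nd4. Gm29216 went from 42.9, 41.3 and 43.8 FPKM to 61.3, 68.6 and 58.3 FPKM (0.55 ± 0.08, adjusted p = 0.0035), beside 0.42 for mt-Co1. In PPARγ/+ cells their differences were 0.72 ± 0.09 and 0.48 ± 0.08 (adjusted p = 0.00078 and 0.0024), beside 0.70 and 0.32. Gm28661, the copy of mt-Co2, was called in neither cell type (0.23 ± 0.11 and 0.17 ± 0.07, adjusted p = 0.16 and 0.086). Whether these values count fragments of mitochondrial or of chromosome 1 origin was not tested.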
